A study of Glycine max with 20 samples.

Results

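The line difference at 35 days after flowering (DAF), in the middle of seed filling, was measured in 4 RNA-seq libraries out of 20. The cgy-2-NIL seeds carried the cgy-2 allele in the background of the soybean cultivar Dongnong47 (DN47), and DN47, the recurrent parent of the backcrosses, supplied the other 2 libraries. Both lines were therefore DN47 by cultivar label, both were sampled at 35 DAF, and neither received a treatment. Each library came from developing seeds with cotyledon and seed coat combined, and seeds of one age were pooled. The replicates came from separate biological samples, 2 for each line. The libraries of the other 4 stages (18, 25, 50, and 55 DAF) entered the fit and served for comparison. All 57274 genes of the count table belong to the comparison, and 40721 of them passed the filter for expressed genes. More than 1 sister line was bred under the name cgy-2-NIL, and the labels do not say which was sequenced. A difference from DN47 can come from the cgy-2 allele or from any other donor segment that was retained, and these cannot be told apart here.

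Soybean seeds store protein mainly as β-conglycinin, the 7S globulin, and glycinin, the 11S globulin. β-conglycinin is built from α′-, α-, and β-subunits, and glycinin from subunits of the Gy genes. Both belong to the cupin superfamily, named for the barrel-like fold of its members, and their genes are transcribed mostly in the cotyledons while the seed fills. The cgy-2 allele removes the α-subunit, a seed allergen, from the protein of the mature seed.

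The 4 libraries held 21895090 and 24124787 counts in cgy-2-NIL and 20582609 and 20423624 counts in DN47. The 8 genes of 7S type and the 8 genes of 11S type in the cupin list served as markers of the filling embryo. The 18 cupin genes together took 14.9% and 21.5% of all counts in cgy-2-NIL, and 22.9% and 20.4% in DN47, so the storage programme of the cotyledon was active in every library. Since such shares differ, levels are given as RPKM, which is scaled to the total count and to gene length, while fold changes and tests rest on TMM-normalized counts. A fold change can therefore differ from the ratio of 2 RPKM values. All fold changes are log2 values of cgy-2-NIL over DN47 from edgeR's quasi-likelihood test, with the standard error (SE) and a p-value with Benjamini-Hochberg adjustment across the 40721 genes tested. A gene was called at an adjusted p under 0.05. In pooled whole seeds, fewer cells of a type and less RNA per cell cannot be told apart.

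A pair of measured features of the libraries moved with the line at this stage. First, expression deviated with gene length in both cgy-2-NIL libraries. Across 32107 genes, Spearman's rho between gene length and the deviation of a library from the gene's mean over all libraries was -0.27 and -0.19 in cgy-2-NIL, against 0.04 and 0.02 in DN47, and these were the most negative values of the 20 libraries. The line difference itself ran with gene length at other stages too. Over the 40721 genes tested, rho between length and the line difference was -0.28 at 35 DAF. It was -0.02, -0.18, -0.06, and -0.11 at 18, 25, 50, and 55 DAF. The main counts below are therefore also given after removal of a smooth length trend from every library, a setting chosen after the data were seen. Second, the cgy-2-NIL replicates differed from each other. At least a 2-fold difference between replicates was found in 233 of 22524 genes in cgy-2-NIL, against 140 in DN47. The number was also the larger in cgy-2-NIL at every other stage. It was 66 against 23 at 18 DAF, 93 against 70 at 25 DAF, 1225 against 204 at 50 DAF, and 460 against 88 at 55 DAF. The part of RNA quality or library preparation in the length trend was not tested.

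The α-subunit genes were lower in cgy-2-NIL, and most other storage globulin genes did not pass the test. GLYMA20G28660, an α-subunit gene, had 5 and 8 counts in cgy-2-NIL, against 3825 and 3705 counts in DN47. Its level was 0.114 and 0.165 RPKM in cgy-2-NIL and 92.4 and 90.2 RPKM in DN47. The groups were far apart, and the log2 fold change was -9.48 (SE 0.31, adjusted p = 1.15e-08 in edgeR's quasi-likelihood test). GLYMA20G28650, the other α-subunit gene, retained 404 and 346 counts in cgy-2-NIL, against 5494 and 4359 counts in DN47. Its level was 6.93 and 5.39 RPKM in cgy-2-NIL and 100.3 and 80.2 RPKM in DN47, with a log2 fold change of -4.05 (SE 0.40, adjusted p = 0.000185 in edgeR's quasi-likelihood test). Both genes stayed past the threshold with each library left out and after removal of the length trend. Reads from near-identical gene copies can be assigned to the wrong copy or dropped in the counting, so that the level of a single α- or β-subunit gene is uncertain to that extent.

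Of the 18 cupin genes, 3 were called higher and 2 lower in cgy-2-NIL. Over all genes tested, 14.7% were called in either direction, 6.74% higher and 7.95% lower. The list median of the log2 fold change was -0.30, against 0.01 over all genes tested. The study listed these cupin genes with the same samples, and their count is no independent evidence of a direction.

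**Figure D1:**
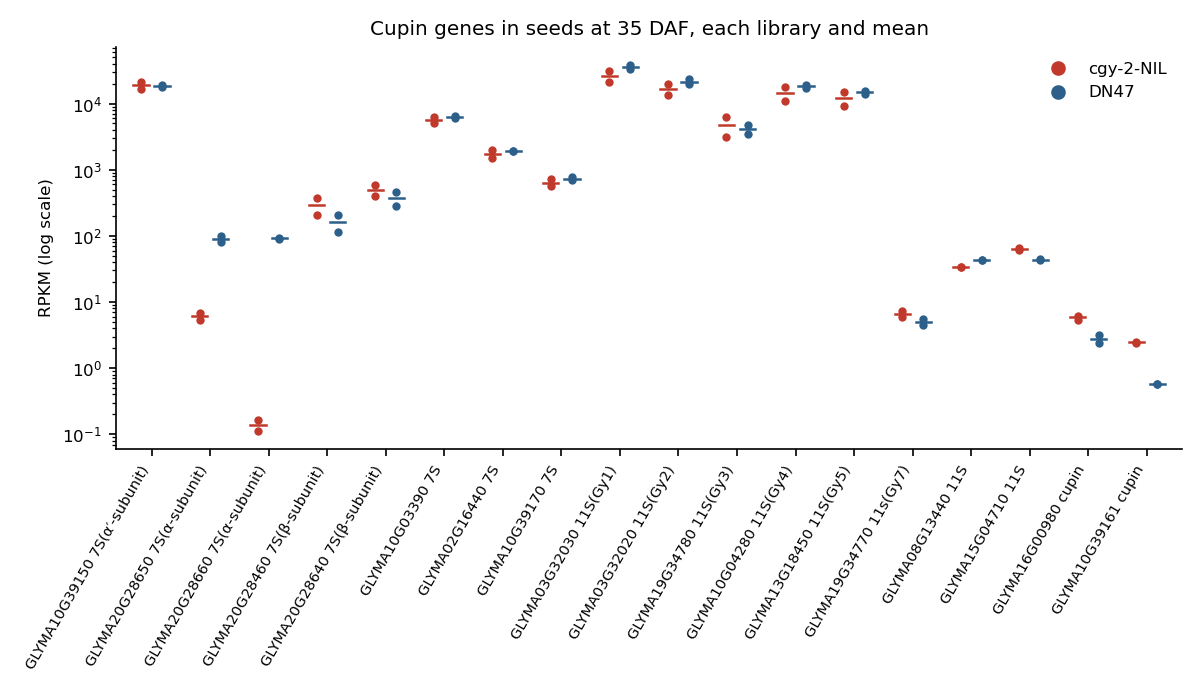
RPKM of the 18 cupin genes at 35 DAF on a log axis, with 1 point for each library and a bar at the mean of 2 libraries, cgy-2-NIL in red to the left of DN47 in blue. The α-subunit gene GLYMA20G28660 lies at 0.114 and 0.165 RPKM in cgy-2-NIL and near 90 RPKM in DN47, while the abundant 7S and 11S genes lie close together in both lines.

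The α′-subunit gene GLYMA10G39150 had 16769 and 21229 RPKM in cgy-2-NIL, against 19225 and 17502 RPKM in DN47. The lines overlapped, and the log2 fold change was -0.10 (SE 0.44). The β-subunit gene GLYMA20G28460 had 375 and 208 RPKM in cgy-2-NIL, against 113 and 209 RPKM in DN47. The other β-subunit gene, GLYMA20G28640, had 595 and 406 RPKM in cgy-2-NIL, against 280 and 463 RPKM in DN47. Neither β-subunit gene passed the test, and their log2 fold changes were 0.68 (SE 0.31) and 0.26 (SE 0.26).

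None of the major glycinin genes passed the test either. Gy1 (GLYMA03G32030) was the most abundant of the cupin genes, with 21254 and 31511 RPKM in cgy-2-NIL, against 37904 and 33830 RPKM in DN47. The log2 fold changes of Gy1, Gy2 (GLYMA03G32020), Gy4 (GLYMA10G04280), and Gy5 (GLYMA13G18450) lay between -0.58 and -0.43, with SEs of 0.50 to 0.64. In each of these 4 genes the lower of the 2 cgy-2-NIL values was that of replicate 1, and that library also held the smallest share of 11S counts, 9.63%, against 15.0% in replicate 2 and 16.8% and 14.7% in DN47. Gy3 (GLYMA19G34780) showed the widest spread, with 3086 and 6310 RPKM in cgy-2-NIL and 4782 and 3482 RPKM in DN47.

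The 3 cupin genes called higher were all of low or middle abundance. GLYMA10G39161, a cupin with no 7S or 11S homolog named by the study, had 2.43 and 2.49 RPKM in cgy-2-NIL, against 0.575 and 0.579 RPKM in DN47. Its log2 fold change was 1.93 (SE 0.51, adjusted p = 0.0200 in edgeR's quasi-likelihood test). GLYMA16G00980, also a cupin without a named homolog, had 6.23 and 5.42 RPKM in cgy-2-NIL, against 2.36 and 3.14 RPKM in DN47. GLYMA15G04710, of 11S type, had 64.7 and 61.0 RPKM in cgy-2-NIL, against 43.4 and 44.2 RPKM in DN47, with a log2 fold change of 0.36 (SE 0.12). The last 2 of these calls were lost when the length trend was removed (adjusted p = 0.106 and 0.246 in edgeR's quasi-likelihood test), and all 3 were lost when any 1 of the 4 libraries was left out. Only the α-subunit genes among the cupins were called in every one of those fits.

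Across the transcriptome, 5985 genes were called at 35 DAF, 2746 higher and 3239 lower in cgy-2-NIL. Which direction held more calls depended on the scaling, with 3011 higher and 2946 lower under the size factors of DESeq2 and 3176 higher and 2784 lower under upper-quartile factors. Most differences were small. Called genes had a median absolute log2 fold change of 0.69, with quartiles of 0.50 and 1.06. The large differences ran mostly upward, as 333 genes were higher by more than 2 on the log2 scale (0.818% of those tested) and 64 were lower by as much (0.157%). At a threshold of 1 on that scale the counts were 1172 higher and 495 lower. Differences above 2 still ran mostly upward with any 1 library left out, but the excess was smallest without replicate 1 of cgy-2-NIL. It shrank further in that fit with the length trend, described below, removed.

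The direction of a call ran with the length of the gene. Genes were split into 5 equal groups by length. In the shortest group, of 90 to 1054 bases, 882 genes were called higher and 131 lower. In the longest group, of 2572 to 21114 bases, 213 were called higher and 1780 lower. The median log2 fold change moved across the groups as 0.23, 0.14, 0.04, -0.05, and -0.21 from the shortest to the longest. With the length trend removed, 4004 genes were called, 1800 higher and 2204 lower, and the counts of the shortest group became 345 higher and 279 lower. Of the 5985 genes, 3448 (57.6%) were called in the same direction after this adjustment, and 0 in the opposite one. After the adjustment 237 genes were called higher and 67 lower by more than 2. Of the 333 higher and 64 lower genes above 2 before it, 268 and 58 were still called in the same direction. The 333 genes were short, with a median length of 1132 bases. It was 1330 bases in all genes called higher and 1707 bases in all genes tested.

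**Figure D2:**
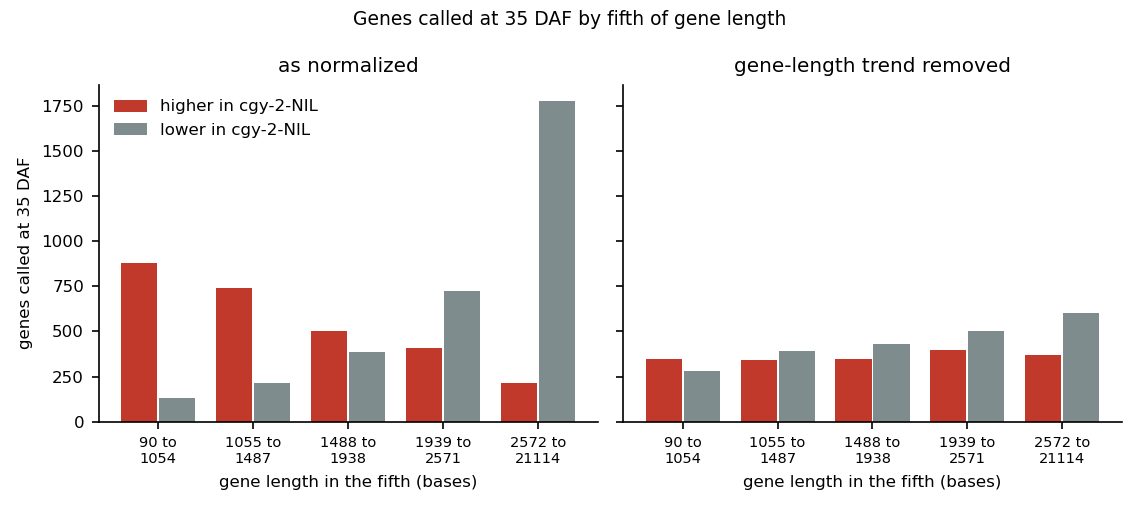
Number of genes called higher (red) and lower (grey) in cgy-2-NIL at 35 DAF in each of 5 equal groups by gene length, as normalized (left) and with the length trend of every library removed (right). On the left the higher calls run from 882 in the shortest group to 213 in the longest and the lower calls from 131 to 1780, whereas on the right no group holds fewer than 279 or more than 600 calls in a direction.

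The count also rested on single libraries. It was 1820 without replicate 1 of cgy-2-NIL, 4533 without replicate 2 of cgy-2-NIL, 1986 without replicate 1 of DN47, and 2572 without replicate 2 of DN47, and with 1 library in an arm its spread is taken from the other groups. In every one of these 4 fits, 488 genes were called higher and 617 lower in the same direction as before, and 524 of these 1105 genes were also called in all fits with the length trend removed. Among the genes that differed by more than 2 on the log2 scale, 103 higher and 21 lower held in all 4 fits.

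Calls were spread unevenly over abundance. Genes were also split into 5 equal groups by mean CPM, the count scaled to library size. In the lowest group, up to 0.910 CPM, 195 genes were called higher and 79 lower, with a median absolute log2 fold change of 2.12. In the highest group, above 22.8 CPM, 600 genes were called higher and 1532 lower, with a median of 0.53. Of the 2266 gene models tested that the authors added to the annotation, which have no GLYMA identifier, 5.30% were called, against 15.3% of the 38455 GLYMA genes, and the median abundance was 0.408 CPM in the added models, against 7.36 CPM in the GLYMA genes.

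The deposited tables do not pair identifiers with gene names, and 0 identifiers were found in the reference annotation used here, so genes outside the lists of the study are described without a function. The 10 genes with the largest rise had log2 fold changes of 4.54 to 6.37, and none of them was annotated. They were ranked among called genes without overlap between the lines and with a mean of at least 20 counts over the 4 libraries. In DN47 they had 1 to 34 counts in a library at 35 DAF. Most of them thus reached that mean through cgy-2-NIL, and their fold changes and ranks rest on few DN47 reads. The mean levels of the 10 genes were 4.14 to 233.9 RPKM in cgy-2-NIL and 0.0972 to 3.82 RPKM in DN47. All 10 were genes whose transcripts fell in DN47 between 25 and 50 DAF, and all 10 were called with the length trend removed. In 5 of them the count of cgy-2-NIL replicate 1 was more than 2-fold that of replicate 2, and 8 of the 10 held when each library was left out in turn.

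From these 10, a pair is named here, chosen after the values were seen. GLYMA14G03580 had 2319 and 2061 counts in cgy-2-NIL, against 30 and 34 counts in DN47, or 259 and 209 RPKM in cgy-2-NIL, against 3.56 and 4.07 RPKM in DN47. The replicates were close to each other in both lines, and the log2 fold change was 5.76 (SE 0.26, adjusted p = 1.15e-08 in edgeR's quasi-likelihood test). GLYMA02G45170 had 375 and 315 counts in cgy-2-NIL, against 5 and 4 counts in DN47, with a log2 fold change of 5.90 (SE 0.52, adjusted p = 9.77e-05 in edgeR's quasi-likelihood test).

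The 10 genes with the largest fall were led by the α-subunit gene GLYMA20G28660 and included GLYMA20G28650, the SBP-box gene GLYMA04G37391, described below, and 3 of the gene models added by the authors. The 7 of them without annotation had log2 fold changes of -4.60 to -2.34. Among these, GLYMA20G29770, named after its values were seen, had 29 and 19 counts in cgy-2-NIL, against 111 and 128 counts in DN47, with a log2 fold change of -2.64 (SE 0.26, adjusted p = 4.61e-05 in edgeR's quasi-likelihood test). GLYMA20G29500, singled out after its values were seen, had 0 counts in both cgy-2-NIL libraries at 35 DAF and in the other 8 cgy-2-NIL libraries. In DN47 it had 31 and 16 counts at 35 DAF and between 5 and 78 counts in the libraries of the other stages. Against a floor of 3 counts in each library it was at least 9.92-fold lower in cgy-2-NIL at 35 DAF.

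Of the 5 genes with the largest gain in RPKM among such genes, all were short (153 to 621 bases), and their mean levels were 460 to 1703 RPKM in cgy-2-NIL, against 158 to 915 RPKM in DN47. After removal of the length trend 3 of these 5 were still called, and 1 of the 5 held with each library left out. The 5 with the largest loss had 204 to 465 RPKM in cgy-2-NIL and 556 to 803 RPKM in DN47, and all 5 were genes that rose in DN47 between 25 and 50 DAF. None of these 5 held with each library left out.

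Transcription factor genes listed by the study were called at this stage about as often as all genes tested. Of the 74 listed, 2 were called higher and 9 lower in cgy-2-NIL, against the background of 6.74% higher and 7.95% lower. Both directions together made a share near the 14.7% called over all genes tested. The list median was -0.17. With the length trend removed, 2 were called higher and 10 lower. The study took these genes from differences in these same libraries, so their number is not independent evidence of a difference.

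GRAS genes are plant regulators that include the DELLA proteins of gibberellin signalling. Of the 28 listed, 1 was called higher and 2 lower, a share no larger than the 14.7% called over all genes tested. GLYMA12G34420 had 21.5 and 16.04 RPKM in cgy-2-NIL, against 3.81 and 6.74 RPKM in DN47. Both cgy-2-NIL libraries lay above both DN47 libraries, and the log2 fold change was 1.67 (SE 0.28, adjusted p = 0.00189 in edgeR's quasi-likelihood test). GLYMA03G03760 had 3.54 and 3.02 RPKM in cgy-2-NIL, against 5.52 and 5.20 RPKM in DN47, with a log2 fold change of -0.88 (SE 0.14). GLYMA01G33270, with a log2 fold change of -0.87 (SE 0.23), was the other GRAS gene called lower.

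SBP-box proteins are plant transcription factors that act in phase change and in flower and fruit development. The SBP-box gene GLYMA04G37391 was scarce in cgy-2-NIL, with 9 and 13 counts, against 62 and 54 counts in DN47. It had 0.215 and 0.282 RPKM in cgy-2-NIL and 1.58 and 1.39 RPKM in DN47. The lines did not overlap, and the log2 fold change was -2.71 (SE 0.33, adjusted p = 0.000147 in edgeR's quasi-likelihood test). The call held with every library left out and with the length trend removed.

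The study listed 13 MADS-box genes with a K-box, a family known for floral organ and seed development. It reported all 13 as lower in cgy-2-NIL at the latest stage sequenced. At 35 DAF, 13 of 13 listed members had negative log2 fold changes, against 47.5% of all genes tested. Since these members were listed as lower in this line, that contrast is a description and no evidence on the family. The value of GLYMA06G48270 was so near to 0 that another scaling can turn its sign. The list median was -0.31 before and -0.44 after removal of the length trend. Only 2 of the 13 passed the test. GLYMA01G08130 had 3.16 and 2.01 RPKM in cgy-2-NIL, against 3.95 and 4.26 RPKM in DN47, with a log2 fold change of -0.85 (SE 0.19). GLYMA02G13401 had 3.53 and 2.86 RPKM in cgy-2-NIL, against 4.54 and 4.36 RPKM in DN47, with a log2 fold change of -0.65 (SE 0.18). In the other members the RPKM ranges of the lines overlapped, except in GLYMA11G36890. GLYMA06G48270, the most abundant member, had 97.4 and 52.5 RPKM in cgy-2-NIL and 58.8 and 72.9 RPKM in DN47, with a log2 fold change of -0.0019 (SE 0.23). None of the 7 TCP genes was called at an adjusted p under 0.05.

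The remaining called transcription factor genes were the BREVIS RADIX genes GLYMA09G34601 and GLYMA16G17590, the jumonji gene GLYMA09G34040, and the GATA gene GLYMA16G27171, all lower, and the TFIIE gene GLYMA05G38060, higher. GLYMA09G34601 had 10.3 and 7.05 RPKM in cgy-2-NIL, against 14.5 and 16.3 RPKM in DN47, with a log2 fold change of -1.003 (SE 0.22). The GATA gene had 6.67 and 3.14 RPKM in cgy-2-NIL, against 6.76 and 8.50 RPKM in DN47, so that the nearest libraries of the lines almost met. The calls of the jumonji gene and of the TFIIE gene were lost after removal of the length trend. Of the 11 transcription factor genes called, 3 held with each library left out, namely GLYMA03G03760, GLYMA12G34420, and GLYMA04G37391. GLYMA01G08130 was lost without replicate 2 of cgy-2-NIL alone, and the other 7 without 2 or more of the libraries in turn.

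Of the 17 genes that the study listed as different at all 5 stages, 15 were called at 35 DAF, 7 higher and 8 lower, where 6.74% of all genes tested were called higher and 7.95% lower. That list was itself chosen with the libraries of 35 DAF, so this count is a description. Ferritin stores iron, and the ferritin gene GLYMA01G31300 was lower in cgy-2-NIL. It had 35.9 and 41.4 RPKM in cgy-2-NIL, against 129 and 144 RPKM in DN47, with a log2 fold change of -1.97 (SE 0.18, adjusted p = 3.27e-05 in edgeR's quasi-likelihood test). GLYMA03G02370, with a C2 domain that can bind calcium and membrane lipid, had 3.35 and 5.03 RPKM in cgy-2-NIL, against 9.62 and 10.5 RPKM in DN47. GLYMA11G15580, annotated as a response regulator, of the kind that receives phosphoryl signals, rose to 25.3 and 18.3 RPKM in cgy-2-NIL, against 10.4 and 12.6 RPKM in DN47. Its log2 fold change was 0.74 (SE 0.11, adjusted p = 0.000605 in edgeR's quasi-likelihood test).

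Several annotated enzymes and binding proteins of that list were also called. The glutaredoxin-like gene GLYMA12G13920, of a family of small redox proteins, had 15.2 and 16.1 RPKM in cgy-2-NIL, against 2.02 and 6.65 RPKM in DN47. The DN47 libraries differed by more than 3-fold from each other, and a fit of the 4 libraries of 35 DAF alone lost the call (adjusted p = 0.173 in edgeR's quasi-likelihood test). The EF-hand gene GLYMA11G25660, whose domain binds calcium, had 3.80 and 2.81 RPKM in cgy-2-NIL and 0.599 and 1.21 RPKM in DN47. The haem peroxidase gene GLYMA09G02600 had 5.92 and 7.08 RPKM in cgy-2-NIL, against 10.8 and 11.5 RPKM in DN47. The glutamate synthase gene GLYMA04G41540, which encodes an enzyme of ammonium assimilation, had 25.4 and 25.3 RPKM in cgy-2-NIL, against 39.3 and 41.3 RPKM in DN47. It spans 7238 bases, and with the length trend removed its log2 fold change was -0.36 in place of -0.82 and it was no longer called (adjusted p = 0.202 in edgeR's quasi-likelihood test). After that adjustment 5 of the 17 genes were called higher and 6 lower, and 4 of the 15 calls held with each library left out, those of ferritin, the C2 gene, the response regulator, and the glutaredoxin-like gene. The calls of glutamate synthase and of the helix-loop-helix gene GLYMA11G18290 were lost without replicate 1 of cgy-2-NIL only.

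**Figure D3:**
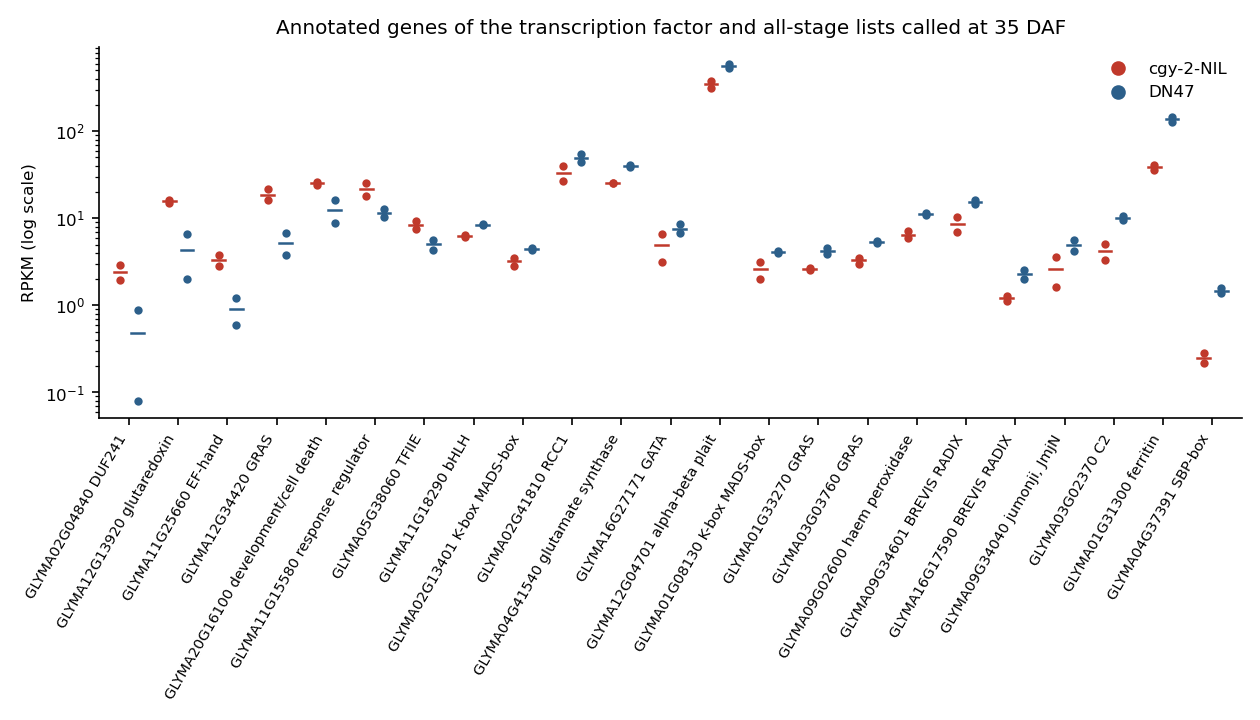
RPKM at 35 DAF of the annotated genes called among the transcription factor and all-stage lists, on a log axis and ordered by log2 fold change from the most positive to the most negative, with 1 point for each library, a bar at the mean, and cgy-2-NIL (red) to the left of DN47 (blue). At the right end the ferritin gene lies at 35.9 and 41.4 RPKM in cgy-2-NIL below 129 and 144 RPKM in DN47, and the SBP-box gene at 0.215 and 0.282 below 1.58 and 1.39 RPKM.

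The difference at 35 DAF was next set beside the developmental change that DN47 undergoes around this stage. Genes were grouped by the change in DN47 between 25 and 50 DAF, which uses none of the 35 DAF libraries. In that comparison 8138 genes (20%) fell and 5837 genes (14.3%) rose, with an absolute log2 fold change above 1. Of the falling genes, 1061 (13%) were called higher in cgy-2-NIL at 35 DAF and 260 (3.19%) lower, with a median log2 fold change of 0.28. Of the rising genes, 303 (5.19%) were called higher and 410 (7.02%) lower, with a median of -0.05. Removal of the length trend left 788 falling genes called higher and 189 lower, 199 rising genes called higher and 383 lower, and medians of 0.24 and -0.11. In the 2143 genes that fell by more than 4 on the log2 scale, 347 were called higher and 9 lower, with a median of 0.66 (0.58 with the length trend removed). In the 817 genes that rose by more than 4, 30 were called higher and 38 lower, with a median of 0.00. With the length trend removed, 17 of these genes were called higher and 40 lower, with a median of -0.07. By the median alone, the steepest risers were thus no further from 0 than the rising genes as a whole, before or after that removal.

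The genes with the largest line differences shared this feature. Of the 333 genes that were higher by more than 2, 199 (59.8%) fell in DN47 between 25 and 50 DAF and 42 (12.6%) rose. Of the 64 genes that were lower by as much, 8 (12.5%) fell and 25 (39.1%) rose. The median change of these 2 sets in DN47 was -3.11 and 0.82 on the log2 scale.

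Each library was placed on the path of DN47, with 0% at the mean of its 25 DAF libraries and 100% at that of its 50 DAF libraries. On the 6147 falling genes above 1 CPM, the 35 DAF libraries stood at 29.2% and 38.4% in cgy-2-NIL and at 46.0% and 45.0% in DN47. On the 4601 rising genes they stood at 38.7% and 40.1% in cgy-2-NIL and at 39.4% and 41.6% in DN47, so the lines were apart on the falling genes and overlapped on the rising genes. With the length trend removed, the falling genes gave 31.6% and 39.8% in cgy-2-NIL and 46.7% and 46.1% in DN47, and the rising genes 33.1% and 36.7% in cgy-2-NIL and 38.9% and 40.2% in DN47, so that the lines then stood apart on both. When the path was drawn between the 25 and 50 DAF libraries of cgy-2-NIL instead, the falling genes gave 33.5% and 41.7% in cgy-2-NIL and 48.5% and 47.6% in DN47. Replicate 1 of cgy-2-NIL stood furthest back. With 2 libraries against 2, the smallest p that an exact two-sided permutation test can give is 0.333, and the positions are a description.

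**Figure D4:**
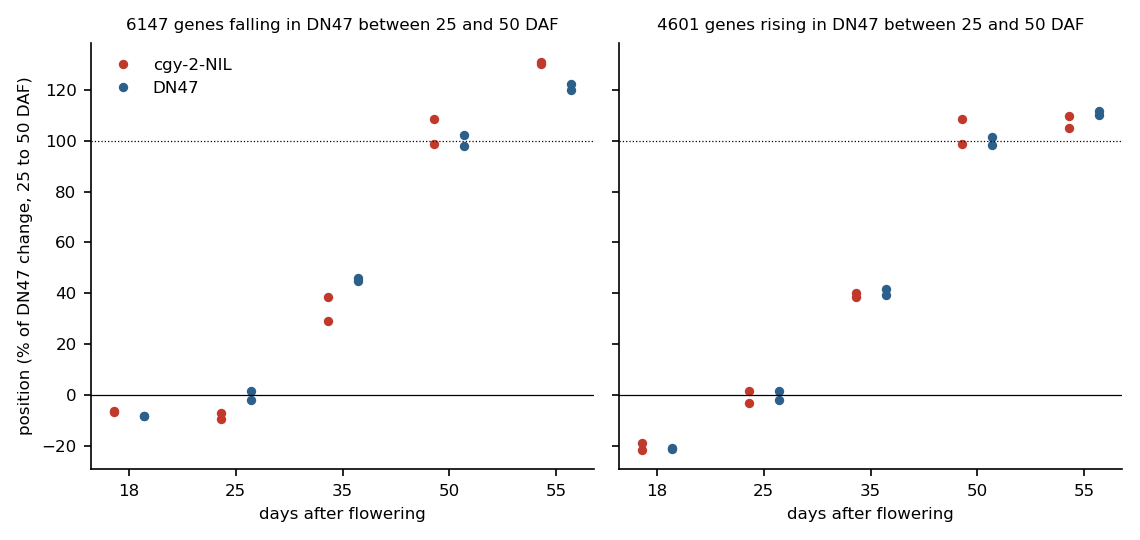
Position of every library along the change of DN47 between 25 DAF (0%) and 50 DAF (100%), for genes that fell (left) and genes that rose (right), with 1 point for each library, stages from 18 to 55 DAF, and cgy-2-NIL (red) to the left of DN47 (blue). At 35 DAF the cgy-2-NIL points on the left lie at 29.2% and 38.4%, below the DN47 points at 46.0% and 45.0%, and the points on the right overlap.

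The line difference at 35 DAF was tested against the mean of the line differences at 25 and 50 DAF. A gene can pass through 1 neighbouring stage alone, so a pass does not make a difference particular to 35 DAF. Against 25 DAF alone 564 genes passed, and against 50 DAF alone 3362. Against the mean of both, 1169 of all genes tested (2.87%) passed, 544 with a more positive and 625 with a more negative difference at 35 DAF. Of these, 841 were themselves called at 35 DAF. With the length trend removed the count was 693, of which 648 were shared with the 1169. The 625 genes had a median length of 2710 bases, against 1707 bases over all genes tested. Without 1 library the count fell to between 192 and 784, with the lowest value lacking replicate 1 of DN47, 251 without replicate 1 of cgy-2-NIL, and 283 without replicate 2 of DN47.

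The SBP-box gene GLYMA04G37391 was called lower in cgy-2-NIL at 35 DAF and was not called at either neighbouring stage. Its log2 fold changes for 25, 35, and 50 DAF were -0.38, -2.71, and 0.23, and the 35 DAF value differed from the mean of the other two by -2.64 (adjusted p = 0.00828 in edgeR's quasi-likelihood test), a call lost without replicate 1 of cgy-2-NIL (adjusted p = 0.0552). In cgy-2-NIL it had 0.675 and 0.903 RPKM at 25 DAF and 0.215 and 0.282 RPKM at 35 DAF. In DN47 it had 0.773 and 1.19 RPKM at 25 DAF and 1.58 and 1.39 RPKM at 35 DAF. At 50 DAF it had only 9 and 5 counts in cgy-2-NIL and 6 and 3 counts in DN47, so a difference could hardly be called there. The GRAS gene GLYMA03G03760 also passed, with log2 fold changes of -0.56, -0.88, and 0.15 for these stages, but not with the length trend removed (adjusted p = 0.0975 in edgeR's quasi-likelihood test) nor with any 1 of the 4 libraries left out.

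In the other direction, GLYMA14G03580 had log2 fold changes of 1.81, 5.76, and 2.05 for 25, 35, and 50 DAF, with a difference of 3.84 between 35 DAF and its neighbours (adjusted p = 0.000579 in edgeR's quasi-likelihood test) that held in every setting tried. In cgy-2-NIL its 25 DAF libraries had 609 and 848 RPKM, its 35 DAF libraries 259 and 209 RPKM, and its 50 DAF libraries 5.94 and 8.22 RPKM. In DN47 the 25 DAF libraries had 164 and 231 RPKM, the 35 DAF libraries 3.56 and 4.07 RPKM, and the 50 DAF libraries 1.85 and 1.42 RPKM. Its transcript was thus at a low level in DN47 by 35 DAF, and in cgy-2-NIL by 50 DAF. The EF-hand gene GLYMA11G25660 was higher at 25 and 35 DAF, with log2 fold changes of 1.65 and 1.70, and lower at 50 DAF, with -4.43. At 50 DAF it had 4 and 0 counts in cgy-2-NIL, against 26 and 42 counts in DN47, so the size of the last value is uncertain. Its call against the neighbouring stages was lost without replicate 1 of DN47. The glutaredoxin-like gene GLYMA12G13920 showed the same order, with 1.16, 1.71, and -1.62, and lost its call against the neighbouring stages with the length trend removed or without 3 of the 4 libraries in turn.

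The β-subunit gene GLYMA20G28640 differed between the stages in another way. Its log2 fold changes for the 3 stages were -3.98, 0.26, and 0.13, and the difference of 2.19 (adjusted p = 0.00766 in edgeR's quasi-likelihood test) came with a line difference at 25 DAF, a call lost without replicate 1 of DN47 (adjusted p = 0.0544). At that stage it had 0.289 and 0.159 RPKM in cgy-2-NIL, against 4.22 and 2.37 RPKM in DN47, and by 35 DAF the lines overlapped. The α-subunit genes did not pass this test, with line differences of -9.10, -9.48, and -8.79 for GLYMA20G28660 at 25, 35, and 50 DAF.

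**Figure D5:**
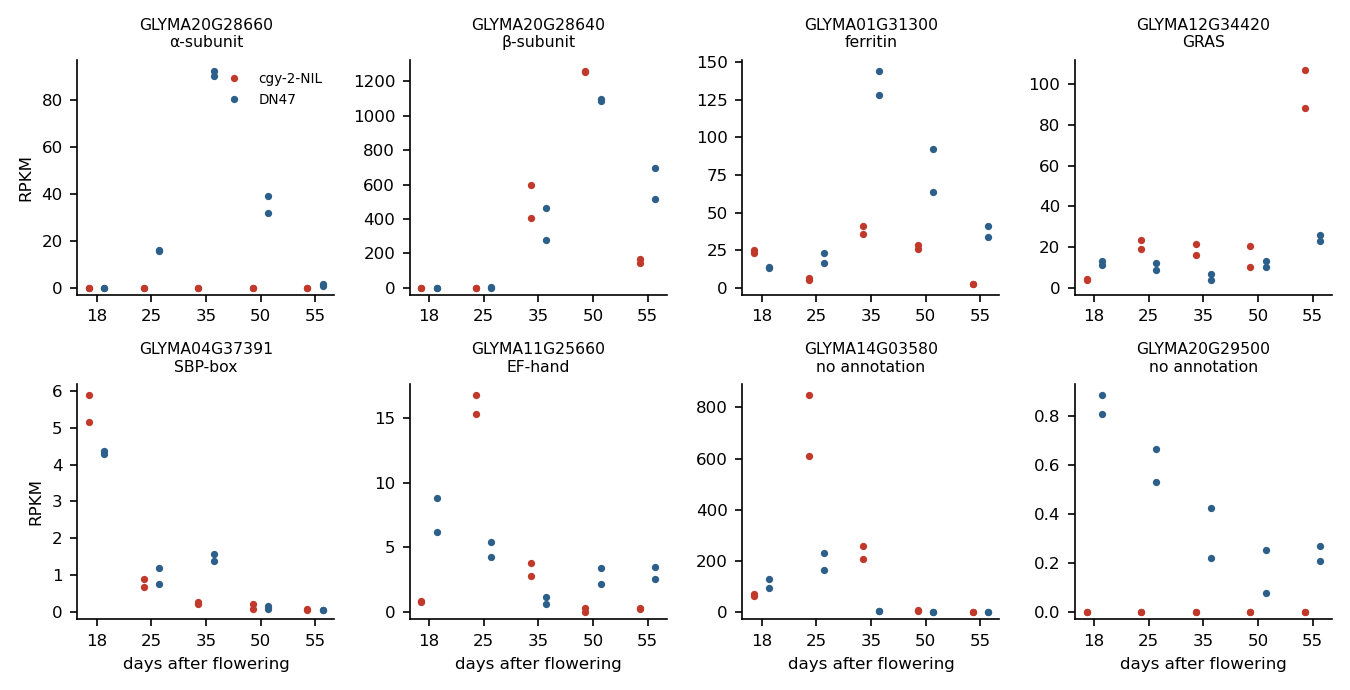
RPKM of 8 genes at the 5 stages from 18 to 55 DAF, on linear axes that differ between panels, with 1 point for each library and cgy-2-NIL (red) to the left of DN47 (blue). The α-subunit gene and GLYMA20G29500 stay at or near 0 RPKM in cgy-2-NIL at every stage. The SBP-box gene lies at 0.215 and 0.282 RPKM in cgy-2-NIL and at 1.58 and 1.39 RPKM in DN47 at 35 DAF. At 18 DAF it is apart in the other direction, at 5.16 and 5.88 RPKM in cgy-2-NIL and 4.29 and 4.36 RPKM in DN47.

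Few calls of 35 DAF were found at 18 DAF and more at the later stages, where more genes were called in all. Over all genes tested, the called share was 1.19% for 18 DAF, 8.07% for 25 DAF, 16.4% for 50 DAF, and then 46.1% for 55 DAF. For 18 DAF, 112 genes were called in the same direction as at 35 DAF, for 25 DAF 985 genes, for 50 DAF 1299 genes, and for 55 DAF 2384 genes. These are 1.87%, 16.5%, 21.7%, and 39.8% of the calls at 35 DAF, and 23.2%, 30.0%, 19.4%, and 12.7% of the calls at those stages. After removal of the length trend, 103, 704, 956, and 1516 genes were called in the same direction. In the opposite direction were called 71, 47, 302, and 990 genes before that removal. The share in the opposite direction was smallest at 25 DAF, and stages share no library. The median log2 fold change of the genes called higher at 35 DAF was 0.28 at 25 DAF and 0.19 at 50 DAF. Only 2 genes were called higher and 10 lower at all 5 stages.

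The cgy-2 allele lies on chromosome 20, where the identifiers also place both α-subunit genes. On chromosome 20, 254 of 1683 genes tested (15.1%) were called, and the shares of the 20 chromosomes ran from 13.4% to 17.7%. Removal of the length trend left 176 genes of chromosome 20 called. Along the order of identifiers, the window of 50 tested genes that holds the α-subunit genes had 11 called, 2 higher and 9 lower. The median of 756 such windows was 7, with a range of 1 to 18, and 108 windows held as many or more. With the length trend removed the window held 8 calls, against a median of 5, and 105 windows held as many or more.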

How the data were processed

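RNA-seq libraries of developing soybean seeds were made from 2 lines at 5 stages, with 2 replicates each. The authors mapped cleaned reads to a soybean genome of Ensembl Plants and deposited raw read counts per gene from HTSeq. The aligner and strand setting are not given in the sources used here, so antisense or overlapping genes cannot be told apart. The authors also deposited RPKM values, which equal count over gene length and library total. Gene lengths are those that the RPKM values imply. The tables hold 0 per-sample columns without a sample and no columns of the authors' comparisons.

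Counts were tested with edgeR 4.0.16 (R 4.3.3, limma 3.58.1): genes were filtered by filterByExpr, scaled by TMM, and fitted with a robust quasi-likelihood model of 10 group means over 20 libraries, with Benjamini-Hochberg adjustment and a threshold of 0.05. Alternatives were DESeq2 (1.42.0), limma-voom, other scalings and filters, fewer libraries, a replicate block, and each 35 DAF library left out. Added after the data were seen, the length trend of each library was removed as an offset, from a natural spline with 5 degrees of freedom on log2 length over genes above a mean of 1 CPM. Positions used log2(CPM + 0.5). The scripts were tested on simulated data. Tables and figures used Python 3.11.15 with matplotlib 3.10.9, scipy 1.17.1, pandas 2.3.3, and numpy 2.4.6.

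Named genes were all cupin genes, called members of the transcription factor and all-stage lists, and, among called genes whose lines did not overlap in CPM and whose mean count reached 20, the 10 highest and 10 lowest fold changes, the 5 largest gains and losses of RPKM, and the 5 largest differences from the neighbouring stages in each direction. Genes without annotation were given as groups, except for those named as chosen after their values were seen. Members and lists were chosen with earlier results of these data known. The reference table of 59048 RefSeq genes matched 0 identifiers.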

Additional observations from a re-analysis of the deposited data

Results flagged for a closer look

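A test of the difference itself found 1169 genes in which the line difference at 35 DAF was unlike the mean of those at 25 and 50 DAF. Among the named genes, this difference of log2 fold changes was -2.64 for the SBP-box gene GLYMA04G37391 and -0.67 for the GRAS gene GLYMA03G03760. It was 3.84 for GLYMA14G03580 and 4.18 for GLYMA02G45170, both without annotation. It was 3.09 for the EF-hand gene GLYMA11G25660, 1.94 for the glutaredoxin-like gene GLYMA12G13920, and 2.19 for the β-subunit gene GLYMA20G28640. Some of these genes had few counts at 50 DAF. GLYMA02G45170 had 12 and 7 counts there in cgy-2-NIL and 7 and 0 counts in DN47. GLYMA11G25660 had 4 and 0 counts in cgy-2-NIL and 26 and 42 counts in DN47. No group holds more than 2 libraries, so no library was tested as an outlier.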

How the results depend on the processing

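The number of calls at 35 DAF stayed within 1.5 times of 5985 under each scaling, filter, tool, and choice of libraries that kept all 4 libraries, and no value of a named gene changed its direction past the threshold. In those same settings 36 values at 35 DAF, of 22 of the genes that the naming rule picked, were no longer past it. The GATA gene GLYMA16G27171 was lost with the 4 libraries alone, GLYMA01G33270, GLYMA16G17590, and GLYMA16G00980 with 12 libraries, GLYMA09G34040 with both of these sets, GLYMA15G04710 with 12 libraries and with the replicate block, and 3 of the 10 largest rises both with limma-voom and with the 4 libraries alone. In the fits with a library left out, the arm with 1 library is assumed to vary like the other groups. The calls then numbered 1820 to 4533, those above 2 on the log2 scale 190 to 498, and those against the neighbouring stages 192 to 784. With the length trend also removed, the calls without each library in turn (cgy-2-NIL replicates 1 and 2, then DN47 replicates 1 and 2) numbered 1145, 2803, 1059, and 1415. Those above 2 numbered 184, 368, 122, and 261, and those against the neighbouring stages 236, 403, 163, and 195. Calls in the same direction ranged from 55 to 84 at 18 DAF, 370 to 875 at 25 DAF, 531 to 968 at 50 DAF, and 786 to 1737 at 55 DAF. Falling genes ranged from 360 to 1069 called higher and 74 to 128 lower, and rising genes from 80 to 186 higher and 128 to 280 lower. On chromosome 20 the calls ranged from 75 to 189, in the cupin list they were 2 in each such fit, and they ranged from 6 to 8 in the transcription factor list and from 4 to 11 in the all-stage list.

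The 397 genes above 2 became 115 with at least 10 counts required in each 35 DAF library, where fewer genes were tested, and 245 with the length trend removed and 4 libraries alone. The 1169 genes against the neighbouring stages became 348 with 12 libraries and 693 with the length trend removed. Removal of the length trend also left 1516 calls in the same direction at 55 DAF in place of 2384, 199 rising genes called higher in place of 303, and 3 cupin genes called in place of 5. The study listed 18 genes for the largest differences, again on these samples. It gave the α-subunit gene GLYMA20G28660 for 35 DAF, and each of the others for 18 or 55 DAF alone. Of the 18, 1 was called at 35 DAF, GLYMA20G28660, and DESeq2 called 3. Since the others were listed for other stages, this share cannot be set against the 14.7% called over all genes tested. The cause of these changes was not tested. Low counts limit the scarce genes most, as the lowest of 5 equal groups by abundance ended at 0.910 CPM.

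Replicate numbers were shared by the lines, and the sources used here do not say whether equal numbers mark a pair. The main fit did not treat the samples as paired. The correlation of the replicate differences of the lines was -0.086 at 35 DAF and -0.17, 0.24, -0.078, and 0.11 at 18, 25, 50, and 55 DAF. With a replicate block, 5188 genes were called at 35 DAF, 668 against the neighbouring stages, and 2 in the list of largest differences.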
